A study of Drosophila melanogaster with 12 samples.

Results

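In whole-ovary RNA of Drosophila melanogaster, 19 of 17768 annotated genes met a rule for consistently lower levels after germline Sfmbt RNAi than after mCherry RNAi. Levels are given as CPM, a gene's fragment count divided by its library's total count and multiplied by 1000000. A gene was kept when its mean CPM was at least 1 over the mCherry RNAi libraries and when its lowest mCherry RNAi level was at least 3 times its highest Sfmbt RNAi level. CG31077 met this with 0 CPM in mCherry RNAi 3 as well as in every Sfmbt RNAi library. Of the 8327 genes that reached 1 CPM, 22 met both thresholds, which is 0.264%. Among these, mt:ND2 of the mitochondrial genome, the antisense RNA gene asRNA:CR43767 and the piRNA pathway gene moon were left out, as the rule names them or their class. No chorion gene named Cp, nor Sfmbt itself, met the thresholds. The mirrored rule, with the groups exchanged, was met by 203 genes. Since these RNA levels chose the 19 genes, their levels and folds are a description and carry no test.

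Both RNA groups carried nanos-Gal4, a driver of expression in germ cells. It drove UAS-mCherry RNAi in the control group and UAS-Sfmbt RNAi (Sfmbt RNAi-1, line TRiP.HMS00473) in the other group, with 3 libraries of polyA RNA in each from ovaries of 2-day-old females, described as biological replicates. Whole ovaries also hold somatic follicle cells, in which this driver is not active, and a single hairpin line was used. Chromatin immunoprecipitation was done with anti-Pho on yw ovaries, and with anti-GFP on ovaries carrying GFP-Sfmbt and on untagged Oregon-R ovaries, with 2 samples each. The count columns are named by letters. Columns C were read as the mCherry RNAi control, and columns A as Sfmbt RNAi because these were the remaining RNA libraries. The authors' deposited fold changes for genes with a summit had the same sign as those from these counts for all 92 compared genes that their adjusted p-value called.

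Sfmbt is a Drosophila Polycomb group protein. It binds the DNA-binding protein Pho, and together they form the Pho repressive complex, which sits at Polycomb response elements and helps to keep target genes silent. Its loss is known mainly for derepression of such targets.

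Sfmbt stood at 137, 111 and 114 CPM in mCherry RNAi libraries 1, 2 and 3 and at 46.0, 46.8 and 41.6 CPM after Sfmbt RNAi, and the groups did not overlap (log2 change -1.66 ± 0.11 SE, edgeR adjusted p = 0.000119). The ovary identity was clear in all libraries, with osk between 144 and 257 CPM, vas between 142 and 344 CPM and the follicle cell and fat body yolk gene Yp1 between 4195 and 8848 CPM. Library totals ran from 34057506 to 51297961 fragments. Over the 9667 genes that passed the filter on low counts, the median log2 difference of Sfmbt RNAi minus mCherry RNAi was 0.19 on the library total scale. After TMM scaling it was -0.04, so folds of CPM are relative to that shift. Chorion genes, which late follicle cells express at eggshell formation, summed to 33352, 46153 and 42069 CPM in mCherry RNAi and to 8200, 21867 and 14977 CPM in Sfmbt RNAi. A list of 44 gut digestive enzyme genes, a marker of another tissue, summed to 416, 2466 and 4146 CPM in mCherry RNAi and to 3.35, 441 and 109 CPM in Sfmbt RNAi. In the first sum the groups did not overlap, and in the second mCherry RNAi 1 lay below Sfmbt RNAi 2. Of those 44 genes, 1 was at 0 in all libraries and 4 were at 0 in all Sfmbt RNAi libraries. Mitochondrial genes took 14.3%, 18.0% and 16.9% of the mCherry RNAi fragments and 9.43%, 11.4% and 6.65% of the Sfmbt RNAi fragments. The part of these shifts in the levels of the 19 genes was not tested.

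By type, 17 of the 19 genes were protein-coding and 2 were noncoding, lncRNA:CR44445 and snRNA:U2:34ABb. The coding genes include proteases, lipases and a lysozyme, enzymes of hormone and amine metabolism, a transporter and genes without a known role. Chromosome arm 3R held 7 of them, 2L held 6, 2R held 5 and 3L held 1. None lay on the X chromosome, which holds 17.5% of all genes at 1 CPM or more, though moon, which met the thresholds and was left out by name, lies there. The median exon length was 1382 bases, against 2097 bases over all genes at 1 CPM or more, and 5 of the 19 had a single exon. The median mCherry RNAi level was 3.75 CPM against 41.4 CPM. The genes were mostly weak: 4 exceeded 10 CPM and 12 were below 5 CPM.

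**Figure D1:**
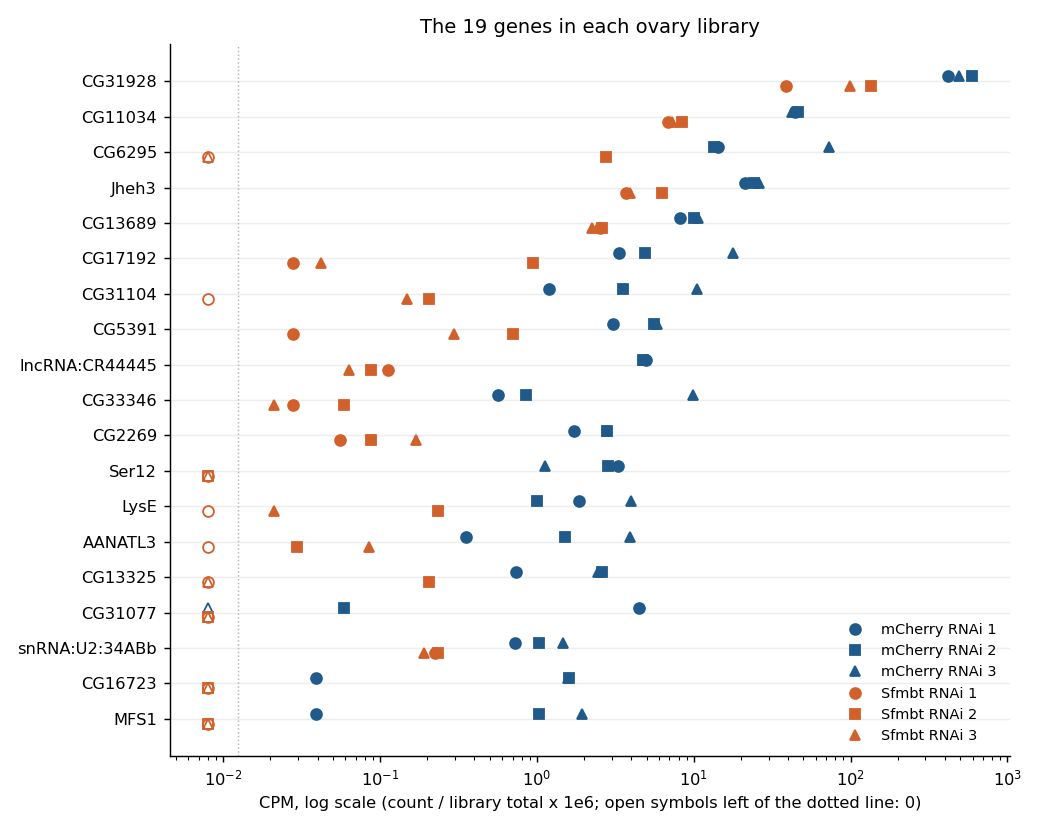
Levels of the 19 genes in each library, as CPM on a log scale, with mCherry RNAi in blue, Sfmbt RNAi in orange and a shape for each replicate number. Open symbols left of the dotted line are libraries at 0. CG31928 stands far above the rest, and 4 genes were at 0 in all Sfmbt RNAi libraries.

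The genes differed in how steady they were among the mCherry RNAi libraries. The highest mCherry RNAi library was less than 2 times the lowest for 7 genes, called even here, and at or above that for 12, called uneven. The bound of 2 was set after the values were seen, and snRNA:U2:34ABb, at 2.04 times, and CG5391, at 1.92 times, lie close to it. Of all genes at 1 CPM or more, 92.4% were even, and of the 1744 genes between 1 and 10 CPM 72.0% were even. In that range of levels 4 of 15 of the listed genes were even.

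Among the even genes, CG31928, a gene for a predicted aspartic-type endopeptidase at 2L:1492295-1493859, was by far the most abundant. It had 421, 594 and 494 CPM in mCherry RNAi libraries 1, 2 and 3 and 38.5, 135 and 99.3 CPM in Sfmbt RNAi. Every control library exceeded every knockdown library, and Sfmbt RNAi 1 was the lowest of all. The ratio of means was 5.53. Per kb of exon it stood at 321 CPM per kb in mCherry RNAi, higher than 97.6% of the genes at 1 CPM or more. Per 1000 CPM of chorion genes it had 12.6, 12.9 and 11.7 CPM in mCherry RNAi and 4.69, 6.17 and 6.63 CPM in Sfmbt RNAi. The means on that scale were 12.4 and 5.83. Its libraries stood in the same order as the chorion sum, as did those of 1.07% of the genes at 1 CPM or more. Per 1000 CPM of gut enzyme genes the groups overlapped, with 1012, 241 and 119 CPM in mCherry RNAi and 11475, 306 and 911 CPM in Sfmbt RNAi. In bulk ovary RNA, fewer cells of a type and less RNA per cell cannot be told apart.

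CG11034 encodes a protein of the dipeptidyl peptidase family, enzymes that clip dipeptides from the ends of peptides (2L:5805395-5809063). It had 44.3, 45.9 and 42.1 CPM in mCherry RNAi and 6.84, 8.37 and 7.27 CPM in Sfmbt RNAi, a ratio of means of 5.89. Both groups were tight and far apart. Its mean level was 44.1 ± 1.89 CPM (SD, n = 3) in mCherry RNAi and 7.49 ± 0.787 CPM (SD, n = 3) in Sfmbt RNAi.

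Jheh3 encodes a juvenile hormone epoxide hydrolase, an enzyme class that inactivates juvenile hormone, the hormone that promotes yolk production and uptake in the adult fly (2R:18860375-18862078). It had 21.4, 24.3 and 26.02 CPM in mCherry RNAi and 3.69, 6.25 and 3.93 CPM in Sfmbt RNAi, with a ratio of means of 5.16. Sfmbt RNAi 2 was the highest of the knockdown libraries and still far below the controls. CG13689, a gene of unknown role at 2L:602813-604430, had 8.19, 10.0 and 10.7 CPM in mCherry RNAi and 2.54, 2.61 and 2.26 CPM in Sfmbt RNAi. Its ratio of means, 3.90, was the smallest of the 19.

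The other even genes were nearly lost. The noncoding gene lncRNA:CR44445 (2R:8242396-8243500) had 4.93, 4.72 and 4.75 CPM in mCherry RNAi, the smallest relative spread of the 19, and 0.112, 0.0881 and 0.0634 CPM in Sfmbt RNAi, a ratio of means of 54.7. CG5391, of unknown role, had 3.06, 5.57 and 5.86 CPM in mCherry RNAi and 0.0279, 0.705 and 0.296 CPM in Sfmbt RNAi, a ratio of 14.1. CG2269 had 1.72, 2.78 and 2.78 CPM against 0.0559, 0.0881 and 0.169 CPM, a ratio of 23.3. Over the Sfmbt RNAi group, lncRNA:CR44445 had 10 fragments, CG2269 had 13 and CG5391 had 39, so the sizes of these ratios are uncertain. In each of these the control libraries were all above 1 CPM and the knockdown libraries all below it, and mCherry RNAi 1 was the lowest control for CG5391 and CG2269.

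Some libraries recurred as the lowest or the highest. Of the 12 uneven genes, 8 were lowest in mCherry RNAi 1, as were 5 of the 7 even genes and 32.2% of all genes at 1 CPM or more. Highest in mCherry RNAi 3 were 8 of the 12, 3 of the 7 and 31.5% of all genes. Of the 8 uneven genes with any fragments in Sfmbt RNAi, 7 were highest in Sfmbt RNAi 2, as were 5 of the 7 even genes and 19.3% of all genes. Some of these ranks rest on few fragments. In Sfmbt RNAi libraries 1, 2 and 3, CG33346 had 1, 2 and 1 fragments, CG31104 had 0, 7 and 7 and snRNA:U2:34ABb had 8, 8 and 9. The share of all genes covers mostly higher levels, with a median of 41.4 CPM in mCherry RNAi. The gut enzyme sum had its lowest control in mCherry RNAi 1, its highest in mCherry RNAi 3 and its highest knockdown library in Sfmbt RNAi 2 as well. LysE, which belongs to the gut list, was left out of that sum. Whether other tissue on the dissected ovaries had a part in these levels was not tested.

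**Figure D2:**
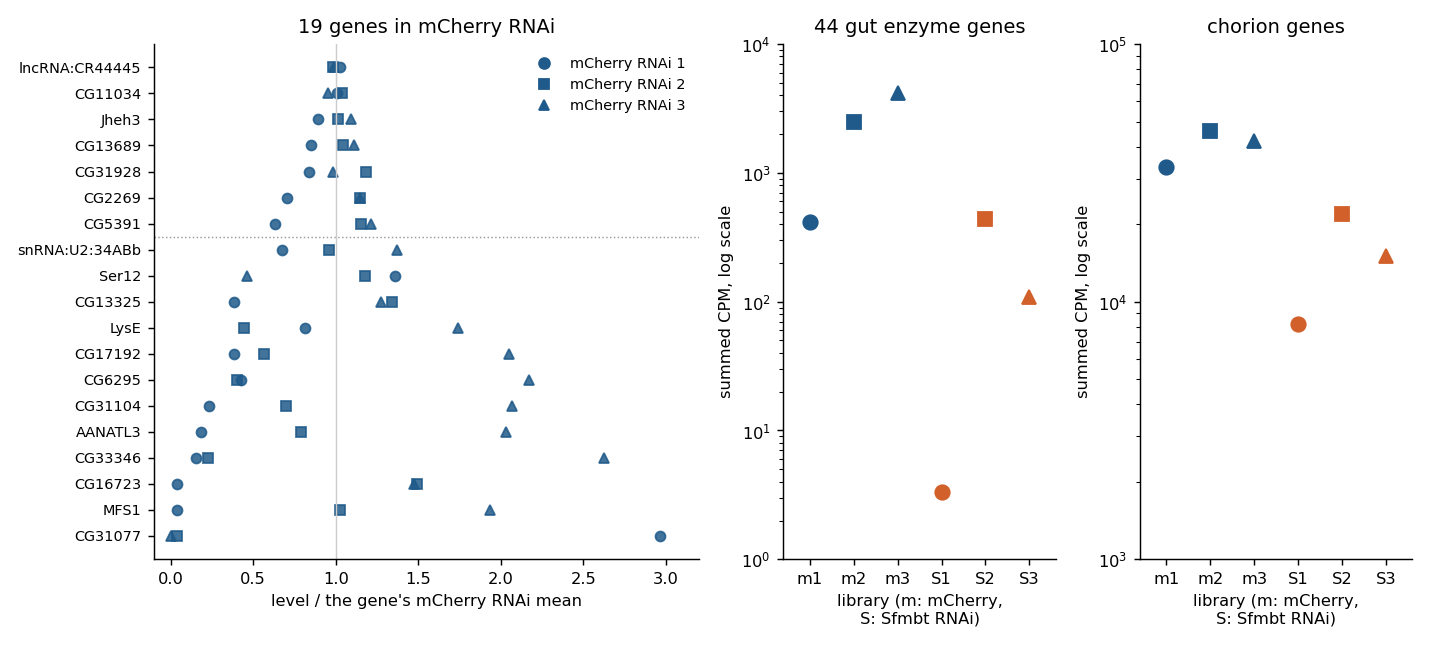
Left, the level of each of the 19 genes in the 3 mCherry RNAi libraries divided by the gene's mCherry RNAi mean, with the dotted line between the 7 even and 12 uneven genes. Middle and right, summed CPM on log scales of 44 gut enzyme genes and of the chorion genes in each library, where the gut sums of mCherry RNAi 1 and Sfmbt RNAi 2 were close at 416 and 441 CPM.

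The lipase genes CG6295 (3R:27005899-27007055) and CG17192 (3R:27017180-27018287), which encode predicted secreted triglyceride-type lipases, had the highest levels of the uneven genes. CG6295 had 14.3, 13.5 and 72.7 CPM in mCherry RNAi and 0, 2.76 and 0 CPM in Sfmbt RNAi, with a ratio of means of 36.4. CG17192 had 3.33, 4.89 and 17.7 CPM in mCherry RNAi and 0.0279, 0.940 and 0.0423 CPM in Sfmbt RNAi, with a ratio of 25.7. For both genes mCherry RNAi 3 was several times the other controls and Sfmbt RNAi 2 held nearly all the knockdown signal. CG31077, a gene of unknown role, lies in the same 18.5 kb of 3R but had 4.48, 0.0592 and 0 CPM in mCherry RNAi. It had no fragments in Sfmbt RNAi. It met the rule because a level of 0 is not above a lowest control of 0, and its level comes from mCherry RNAi 1 alone.

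CG31104 (3R:25285473-25286974), of a family of ecdysteroid-kinase-like proteins, had 1.19, 3.55 and 10.5 CPM in mCherry RNAi and 0, 0.206 and 0.148 CPM in Sfmbt RNAi, a ratio of means of 43.1. AANATL3 (2L:20024975-20025811), an arylalkylamine N-acetyltransferase-like gene of a family that acetylates amines, had 0.351, 1.52 and 3.93 CPM against 0, 0.0294 and 0.0845 CPM, a ratio of 50.9. CG33346 (3R:28669233-28670452), which encodes a predicted DNA/RNA non-specific endonuclease, had 0.565, 0.849 and 9.85 CPM against 0.0279, 0.0587 and 0.0211 CPM, a ratio of 104. All of these were highest in mCherry RNAi 3 and lowest in mCherry RNAi 1, and the ratio of CG33346 rests on mCherry RNAi 3, since the other controls were below 1 CPM. Over the Sfmbt RNAi group, CG33346 had 4 fragments, AANATL3 had 5 and CG31104 had 14, so the sizes of these ratios are uncertain.

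Ser12, a trypsin-like serine protease gene (2L:2250431-2251275), ran the other way among the controls, with 3.27, 2.84 and 1.12 CPM in mCherry RNAi libraries 1, 2 and 3. It had no fragments in any Sfmbt RNAi library. Counting 3 fragments over the group as the floor, it was at least 94.2-fold higher in mCherry RNAi. LysE (3L:1212827-1213406), a lysozyme of a gene cluster known for expression in the larval and adult midgut, had 1.85, 1.01 and 3.96 CPM in mCherry RNAi and 0, 0.235 and 0.0211 CPM in Sfmbt RNAi. Its near-identical copies and the gene mwh, which overlaps it on the same strand, make that level uncertain. CG13325 (2R:13110769-13126014) had 0.741, 2.59 and 2.45 CPM against 0, 0.206 and 0 CPM.

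The remaining genes were the weakest. MFS1 (2R:22829644-22831877), a transporter of the major facilitator family, had 0.0390, 1.03 and 1.94 CPM in mCherry RNAi, and CG16723 had 0.0390, 1.599 and 1.58 CPM. Neither had fragments in Sfmbt RNAi, which puts the lowest fold over the group floor at 39.1 for MFS1 and 41.9 for CG16723, and CG31077 at 59.1. In mCherry RNAi 1 each of MFS1 and CG16723 stood below the floor of 3 fragments, 0.0585 CPM. The spliceosomal U2 RNA gene snRNA:U2:34ABb had 0.721, 1.03 and 1.47 CPM against 0.223, 0.235 and 0.190 CPM. It is 1 of several near-identical U2 copies, and U2 RNA has no polyA tail, so its level in these libraries is uncertain. On filtering of low counts, 16 of the 19 genes would have entered the fit, all but MFS1, CG16723 and CG31077.

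At the threshold, the smallest ratios of lowest control to highest knockdown library among the 19 were 3.07 for snRNA:U2:34ABb, 3.12 for CG31928 and 3.13 for CG13689. Just outside were lncRNA:CR43961 at 2.93, QC, a glutaminyl cyclase gene, at 2.89 and LysD at 2.84. QC had 107, 104 and 105 CPM in mCherry RNAi and 27.9, 36.1 and 36.0 CPM in Sfmbt RNAi, so a more abundant gene than all but CG31928 missed the list by a small margin. With TMM library sizes 40 genes met the rule, all 19 among them. Without mCherry RNAi 1 the number was 196, without Sfmbt RNAi 2 it was 83 and without Sfmbt RNAi 3 it was 37. Leaving out a library can only loosen the bound between lowest control and highest knockdown, so part of these rises was fixed in advance. Of the 19, 1 was lost without mCherry RNAi 1, 2 without mCherry RNAi 2 and 5 without mCherry RNAi 3.

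Genes beside the 19 were not chosen by the rule and could be tested. The fit across 9667 genes called 34.7% at an adjusted p under 0.05 by edgeR's quasi-likelihood test, 19.4% lower and 15.2% higher. Over the nearest tested gene on each side there were 34 different neighbours, of which 12 were lower, 35.3%, 2 were higher and 20 were not called. Their median log2 change was -0.52, against -0.04 over all tested genes. The number of called neighbours, 14, was 7 without mCherry RNAi 2, 8 without mCherry RNAi 3 and 9 without Sfmbt RNAi 3. The number of genes called in all, 3350, was 1756 without mCherry RNAi 2 and 1931 without mCherry RNAi 3.

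The most strongly changed neighbour rose. Gsc, a homeobox gene, lies 8127 bases from CG13689 on the opposite strand. It had 0.0195, 0.0395 and 0.0273 CPM in mCherry RNAi and 9.89, 10.5 and 13.5 CPM in Sfmbt RNAi (log2 change 8.25 ± 0.34 SE, edgeR adjusted p = 1.08e-05), while CG13689 beside it was lower in every knockdown library. CG18131, within 5 kb of CG31928 on the opposite strand, stood at 0.253, 0.296 and 0.436 CPM in mCherry RNAi and at 51.1, 46.8 and 46.1 CPM in Sfmbt RNAi (log2 change 6.98 ± 0.20 SE, edgeR adjusted p = 2.86e-06). It was named after its values were seen. Both genes were near absent from every control library and present in every knockdown library, next to an even gene of the list that went the opposite way. CG10011, the other called neighbour that rose, changed by 0.67 ± 0.09 on the log2 scale (edgeR adjusted p = 0.00201).

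**Figure D3:**
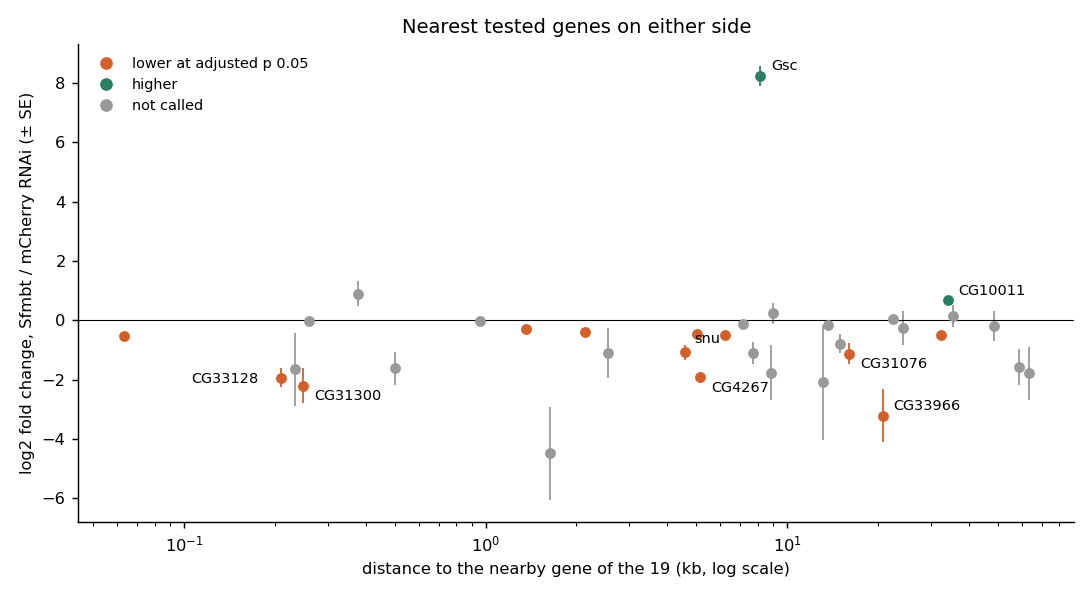
Log2 fold change of Sfmbt RNAi over mCherry RNAi, with its SE, for the nearest tested gene on either side of the 19, against its distance from the listed gene in kb on a log scale. Gsc stands alone at 8.25, and 12 neighbours called lower lie between -3.22 and -0.28.

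Of the lower neighbours, CG4267 beside Ser12 was the most certain. It had 79.7, 80.9 and 79.8 CPM in mCherry RNAi and 17.1, 26.2 and 31.1 CPM in Sfmbt RNAi (log2 change -1.93 ± 0.18 SE, edgeR adjusted p = 0.000719). Jra, the fly Jun transcription factor, begins 63 bases from CG2269 and fell by 0.55 ± 0.08 on the log2 scale (edgeR adjusted p = 0.00300). Jheh2, the next gene to Jheh3, fell by 0.39 ± 0.07 (edgeR adjusted p = 0.00794). The condensin gene barr fell by 0.48, the phospholipid synthesis gene Pect by 0.45 and the ABC transporter gene snu by 1.08, with edgeR adjusted p of 0.0130, 0.0131 and 0.0194. In CPM the groups of snu did not overlap, but those of barr and Pect did. For barr, mCherry RNAi 2 had 59.1 CPM and Sfmbt RNAi 3 had 62.5 CPM. For Pect, mCherry RNAi 1 had 118.1 CPM and Sfmbt RNAi 3 had 118.9 CPM. The call of Pect was lost without mCherry RNAi 2, and that of snu without mCherry RNAi 2, mCherry RNAi 3 or Sfmbt RNAi 3.

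Several of the 19 stand in rows of related genes, and the relatives named here were chosen after their values were seen. In the protease row, CG33128, 210 bases from CG31928, had 1.07, 1.48 and 1.09 CPM in mCherry RNAi and 0.279, 0.411 and 0.423 CPM in Sfmbt RNAi (log2 change -1.94 ± 0.32 SE, edgeR adjusted p = 0.00446). CG31926, the next in the row, had 163, 258 and 207 CPM against 33.6, 99.0 and 74.9 CPM (log2 change -1.84 ± 0.43 SE, edgeR adjusted p = 0.0250). The groups of both genes did not overlap. CG31661, also within 5 kb on the same strand, was not called, with 189, 244 and 214 CPM in mCherry RNAi and 11.3, 84.9 and 82.1 CPM in Sfmbt RNAi (log2 change -2.11 ± 0.77 SE, edgeR adjusted p = 0.0995). The call of CG31926 was lost without mCherry RNAi 2, mCherry RNAi 3 or Sfmbt RNAi 3, and with no filter on low counts.

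In the juvenile hormone epoxide hydrolase row the sizes differed. Jheh1 had 25.9, 29.9 and 30.9 CPM in mCherry RNAi and 16.6, 18.9 and 16.6 CPM in Sfmbt RNAi (log2 change -0.96 ± 0.11 SE, edgeR adjusted p = 0.00116), and Jheh2 had 141, 145 and 145 CPM against 130, 132 and 124 CPM. The list gene Jheh3 had the largest ratio of the row, and Jheh2, the most abundant, the smallest. Jheh3 was chosen by its ratio and Jheh1 and Jheh2 fell short of the rule, so the rank of Jheh3 was largely fixed in advance. Jhe, a juvenile hormone esterase from the fat body list, also fell by 2.25 ± 0.50 on the log2 scale (edgeR adjusted p = 0.0139), from 1.66, 1.28 and 0.955 CPM to 0.112, 0.470 and 0.380 CPM. Its call was lost without mCherry RNAi 2.

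**Figure D4:**
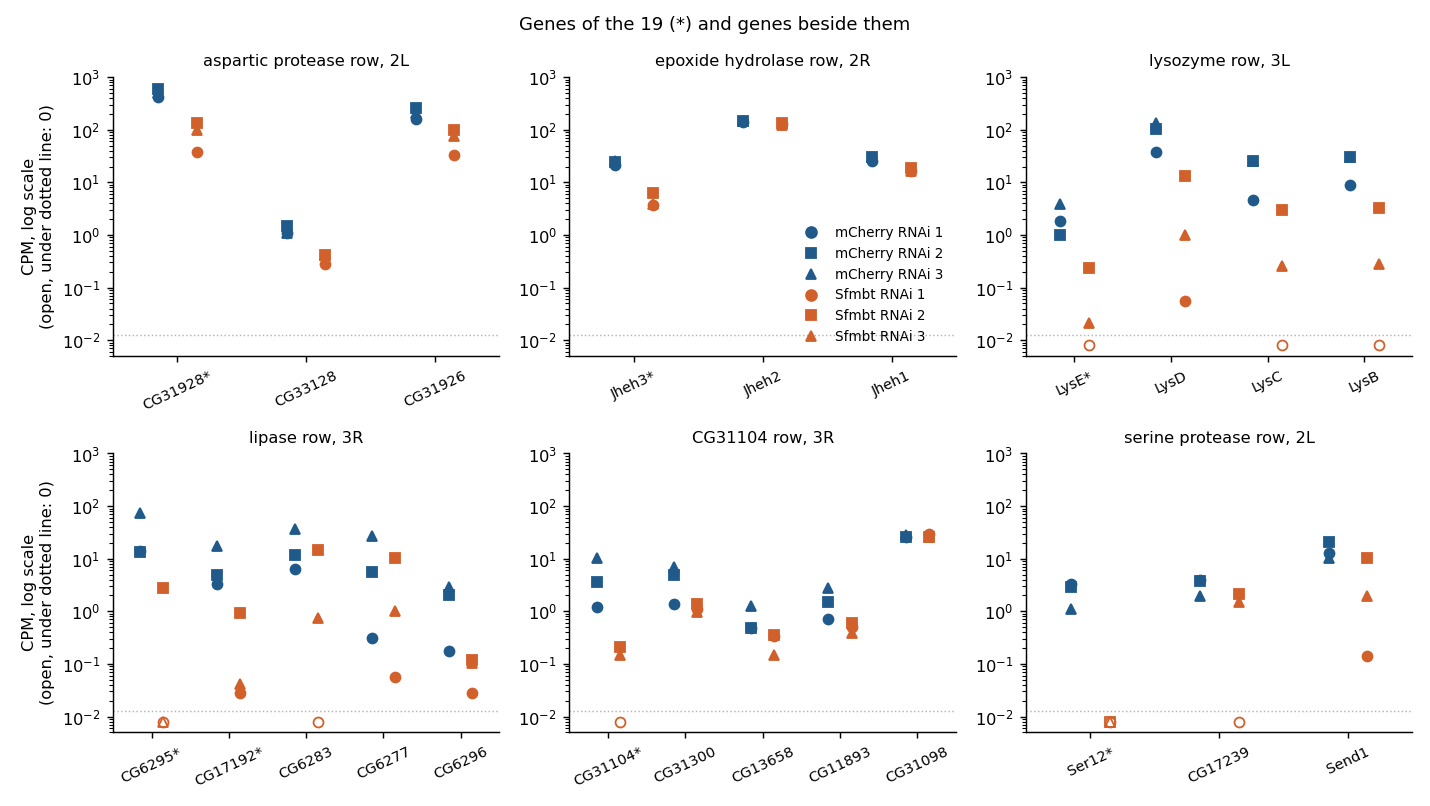
CPM on a log scale in each library for genes of the 19, marked by an asterisk, and genes beside them, with mCherry RNAi in blue, Sfmbt RNAi in orange, a shape per replicate and open symbols for 0. The groups do not overlap in the protease row and the epoxide hydrolase row, and they overlap for CG6283, CG6277, CG17239 and CG31098.

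In the lipase row, neither CG6283 nor CG6277 was called. CG31076, the nearest tested gene on the other side of CG6295 and CG17192, was called lower (log2 change -1.13 ± 0.36 SE, edgeR adjusted p = 0.0459). CG6283 had 6.45, 11.7 and 37.5 CPM in mCherry RNAi and 0, 14.5 and 0.761 CPM in Sfmbt RNAi (log2 change -2.09 ± 1.94 SE, edgeR adjusted p = 0.461). CG6277 had 0.312, 5.53 and 27.4 CPM against 0.0559, 10.2 and 1.04 CPM (log2 change -1.79 ± 2.10 SE, edgeR adjusted p = 0.563). For both, Sfmbt RNAi 2 exceeded some control libraries. The lysozyme copies LysB, LysC and LysD had log2 changes of -4.57, -4.35 and -4.49, with edgeR adjusted p of 0.0967, 0.120 and 0.0925, and none was called. Beside Ser12, CG17239 had a log2 change of -1.66 and Send1, a spermathecal endopeptidase gene, one of -2.07, with edgeR adjusted p of 0.343 and 0.287.

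In the row of CG31104, CG31300 had 1.36, 4.99 and 7.06 CPM in mCherry RNAi and 1.12, 1.35 and 0.951 CPM in Sfmbt RNAi (log2 change -2.20 ± 0.58 SE, edgeR adjusted p = 0.0254). CG11893 had a log2 change of -1.99 ± 0.54 SE (edgeR adjusted p = 0.0265) and CG13658 one of -1.62 ± 0.56 SE (edgeR adjusted p = 0.0587). CG11892, on the other side of CG31300, had 37.8, 38.9 and 62.5 CPM against 64.8, 29.1 and 20.9 CPM (log2 change -0.49 ± 0.51 SE, edgeR adjusted p = 0.513), and its groups overlapped. CG31098, at the other end, stood at 26.1, 25.6 and 28.3 CPM against 29.6, 25.7 and 25.9 CPM. Its groups overlapped as well. The calls of CG31300 and CG11893 were each lost when any library but mCherry RNAi 1 was left out, and with a replicate block.

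Binding was read from the authors' list of 352 summits of Pho and GFP-Sfmbt signal, which they assign to 289 genes, with signals in RPM. None of the 19 genes was assigned a summit, beside 204, or 2.45%, of the genes at 1 CPM or more. The nearest was 7.99 kb from CG13689, at the summit assigned to Gsc, where the authors give 1.38 RPM for Pho, 0.718 RPM for GFP-Sfmbt and 0.294 RPM for untagged chromatin. The medians over all summits were 4.52, 0.886 and 0.336 RPM. For 16 of the 19 genes the nearest summit was over 50 kb away, and the median distance over all 19 was 151 kb. These distances were not computed for other genes, so they do not set the 19 apart. The list holds summits and not all bound sites, so weaker binding at the 19 genes was not measured here.

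Lists of genes for processes in which the 19 might take part were counted without the 19, beside the same background of 19.4% lower and 15.2% higher. Of 39 tested gut enzyme genes 1 was lower and 0 were higher, with a median log2 change of -3.55: zetaTry, a trypsin, stood at 0.468, 4.01 and 4.88 CPM in mCherry RNAi and at 0.0279, 0 and 0.338 CPM in Sfmbt RNAi (edgeR adjusted p = 0.0420), and its call was lost without mCherry RNAi 2 or 3 or Sfmbt RNAi 1 or 2, and with no filter on low counts. Jon74E and epsilonTry, with edgeR adjusted p of 0.05004 and 0.0865 and so not called, were called lower by DESeq2 and with a replicate block. Of 4 tested genes on the list for the oviduct and sperm storage organs, 2 were lower, the octopamine receptor genes Oamb and Octbeta2R, with log2 changes of -1.69 and -1.62 (edgeR adjusted p = 0.0311 and 0.00223). Which cells in the whole-ovary samples held these RNAs was not tested. Octbeta2R stood at 11.7, 14.4 and 15.5 CPM in mCherry RNAi and at 3.83, 6.34 and 5.83 CPM in Sfmbt RNAi, with no overlap. The call of Oamb was lost without mCherry RNAi 2, mCherry RNAi 3 or Sfmbt RNAi 3, and with no filter on low counts.

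Late follicle cell genes other than chorion were lower in 9 of 19, with 0 higher. yellow-g2, an eggshell gene, had 836, 1029 and 1084 CPM in mCherry RNAi and 217, 475 and 290 CPM in Sfmbt RNAi (log2 change -1.82 ± 0.30 SE, edgeR adjusted p = 0.00666). Of 22 tested detoxification enzymes 10 were lower and 1 was higher, GstD2, with a log2 change of 3.25 ± 0.25 SE (edgeR adjusted p = 0.000215). Of 12 tested antimicrobial peptide genes 3 were lower and 0 were higher, with AttA at -2.06 ± 0.40 (edgeR adjusted p = 0.00793). Egg maturation and activation genes were lower in 11 of 18 and replication genes in 27 of 29, with 0 higher in each.

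For other cell types, the fat body list had 3 lower of 14 tested, the hemocyte list 1 of 11 and the muscle list 1 of 17, with 0 higher in each. The neuron list had 3 higher and 0 lower of 5. The somatic gonad list had 2 higher and 2 lower of 16. In the germline, 8 of 16 tested stem cell and early cyst genes were higher and 1 lower, 5 of 16 oocyte and nurse cell genes were higher and 3 lower, and 6 of 12 testis genes were higher and 2 lower. The piRNA pathway list had 8 higher and 3 lower of 22, meiotic recombination 5 and 4 of 16, the thioredoxin system 0 and 4 of 8 and the Pho repressive complex 0 and 2 of 3, of which 1 is Sfmbt, the RNAi target.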

How the data were processed

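RNA was measured in 6 ovary libraries and chromatin in 6 samples. The deposited table gives whole-number counts per gene and exon lengths, made by the authors with featureCounts 1.6.3 on STAR 2.7.2a alignments to BDGP6, gene model BDGP6.28, Ensembl release 101, per the submitters' processing notes and the file header. The header states reverse-stranded counting. The authors' deposited summit table gives ChIP signal as RPM, with an average-rank score, and RNA as average TPM, log2 fold change and adjusted p-value, of which the log2 fold change and p-value were used to check the column letters and the TPM were not used. For the summits, the caller, the window of the RPM and any pooling were not given in the sources used here.

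From the counts, CPM was computed on library totals. Of 17768 gene IDs, 17670 were given a symbol and 98 were not. The test of genes outside the rule was edgeR 4.0.16 (R 4.3.3), quasi-likelihood, TMM scaling, filterByExpr with a minimum count of 10, Benjamini-Hochberg adjustment over 9667 genes, called under 0.05. The fit was tested on simulated data. DESeq2 1.42.0 was an alternative, beside other scalings, filters, a replicate block and leaving out each library. The p-values measure the spread between these libraries, and floors of 3 fragments cover counting error only. No 2 libraries agreed within sampling noise. Gene lists without the 19 were counted, matching 339 of 340 symbols. Named were all 19 genes, 3 genes on each side of the threshold, called neighbours up to 10 by adjusted p and the 3 smallest adjusted p per list, of which those with a bearing are printed; further genes are said to have been chosen after their values were seen. The 19 genes and the lists were chosen with earlier results of these data known.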

Additional observations from a re-analysis of the deposited data

How the results depend on the processing

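By normalization and threshold, the number of genes meeting the rule was 19 on library totals, 40 with TMM sizes, 32 with RLE sizes, 24 with totals without mitochondrial and chorion genes, 79 at a 2-fold bound, 13 at a 4-fold bound, 22 at 0.5 CPM and 7 at 5 CPM, and 15 to 196 when each library was left out. With 10 fragments required in the lowest mCherry RNAi library, an alternative chosen after seeing the data, 16 remained. The genes called numbered 3350, with 3830 by DESeq2, and 1756 to 3295 when each library was left out. The called neighbours numbered 14 of 34, or 41.2%, beside 34.7% of all tested genes, with 7 to 14 when each library was left out. Chosen after seeing the data, they were 5 beside the even genes. Of the 31 tested genes within 5 kb, also chosen after seeing the data, 9 were called, 8 lower and 1 higher. The listed genes called numbered 124, with 91 to 125. With a replicate block 2959 genes, 13 neighbours and 144 listed genes were called. Same-numbered libraries had correlations of 0.432, 0.305 and 0.0729 of their deviations, and differently numbered ones had correlations from -0.445 to 0.346. Not every library correlated best with its own number. Whether same-numbered libraries shared a batch was not tested. Of 79 named genes, 54 kept their direction and call in every setting. CG6277 changed sign without mCherry RNAi 3, at a log2 change of 0.11 in a range from -4.58 to 0.11 over the left-out libraries, and the cause was not tested. Both summit alternatives take a subset of a list with no summit at the 19 genes, so their count of 0 was fixed. The search for promoter motifs was not run. Counts near the floor limit MFS1, CG16723 and CG31077, and 3 libraries a group limit every call. Few Sfmbt RNAi fragments also limit the ratios of CG33346, AANATL3 and lncRNA:CR44445.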
